A study of Mus musculus with 47 samples.

Results

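The luminal and basal keratins are 8 genes, KRT7, KRT8, KRT18 and KRT19 of the luminal layer and KRT5, KRT14, KRT15 and KRT17 of the basal layer. They were taken by symbol from the 21980 gene symbols used of the deposited table, and all 8 of 8 were found. Their RNA was measured in 47 libraries from sorted mammary epithelium of 20 ovariectomized FVB mice. The groups were EP+TPA (estradiol and progesterone with telapristone acetate), EP+RU486 (estradiol and progesterone with mifepristone), EP (estradiol and progesterone) and sham, each for 14 days. Both telapristone and mifepristone are steroids that block the progesterone receptor. Sham mice were ovariectomized as well, so all groups lacked ovarian hormone production. Doses and ages are not given in the sources used here. Cells had been sorted by flow cytometry into luminal mature (LM), luminal progenitor (LP) and mammary stem cell (MSC) fractions. Each fraction had 4 mice per treatment, except LM EP with 3.

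Keratins are the intermediate filament proteins of epithelia, and a filament is built from pairs of a type I and a type II chain. In the mammary gland KRT8 (type II) pairs with KRT18 (type I) in luminal cells, and KRT5 (type II) pairs with KRT14 (type I) in basal and myoepithelial cells. KRT7 (type II) and KRT19 (type I) are further luminal chains, and KRT15 and KRT17 are type I chains of basal cells in stratified and ductal epithelia. Their filaments anchor at desmosomes between cells and at hemidesmosomes on the basement membrane.

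The deposited values were on the scale of FPKM, that is, fragments scaled for transcript length and depth, and they carried an adjustment by gene within 3 sets of libraries. Set 1 held the 15 LM libraries, set 2 the 16 LP and 6 MSC libraries, and set 3 the other 10 MSC libraries. The adjustment placed genes on an offset. KRT14 was never under 254.4 in LM, where 11 of 15 libraries lay within 5% of that lowest value, and never under 75.9 in LP. In set 3 the offset lay under the luminal keratins, with KRT8 never under 998.8. A value near the lowest of its set is therefore not evidence of expression, log2 folds over an offset are compressed, and levels are compared neither between sets nor between LM and the other fractions. Summed over all genes, a library held 281351 to 349128 in the LM fraction, 297710 to 358375 in the LP fraction and 217977 to 356258 in the MSC fraction. The read depth behind a value is unknown.

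The fraction labels were set against their defining markers. The luminal mature markers FOXA1 and PRLR were listed at 0 in 3 of 4 LM EP+TPA libraries and in 4 of 4 LM EP+RU486 libraries. FOXA1 stood at 12.4 to 42.6 in LM EP libraries and at 11.8 to 67.2 in LM sham libraries. The exception in LM EP+TPA was mouse 332, with 3.31 for FOXA1 and 27.5 for PRLR. The summed level of 20 luminal mature markers above their lowest values was 100.3 to 224.5 in LM EP+TPA, 71.6 to 140.5 in LM EP+RU486, 530.8 to 2332 in LM EP and 944.6 to 2016 in LM sham libraries. The LM libraries of both antagonist groups thus went against their label on these markers, and every result on them carries that limit. Markers disagreed in LM EP. ESR1 read 2.51, 11.2 and 1.70 in LM EP mice 306, 311 and 327, against 16.3 to 30 in sham. ELF5 read 17.1, 0 and 18.7 in those mice, against 0 to 6.43 in sham, while CD14 read 0, 16.4 and 0, against 119 to 531. LM EP mice 306 and 327 thus went against their label on ESR1 and ELF5, and comparisons with LM EP carry that limit. In LP, the luminal mature marker sum was 129 to 209.3 with EP+TPA, 147.6 to 240.4 with EP+RU486, 1059 to 1827 in EP mice 306, 322 and 327, 222.8 in EP mouse 311 and 370.1 to 793 in sham. The sum of 20 luminal progenitor markers was 10920 to 23050 with EP+TPA, 8877 to 21410 with EP+RU486, 956.8 to 13230 with EP and 20180 to 29640 in sham. PRLR stood at 213 to 407 in EP mice 306, 322 and 327 and at 95.8 to 179 in sham LP libraries, and the progenitor markers ELF5 and CD14 were at 3.91 and 48.7 in mouse 327. The LP libraries of those 3 EP mice thus went against their label on these markers, and mouse 311 is given apart in the LP results. In MSC, the basal regulator TRP63 was listed at 0 in mice 312 (EP+TPA), 313 (EP+RU486) and 310 (sham). In such bulk samples, fewer cells of a type and less RNA per cell cannot be told apart.

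The first question was how the luminal keratins stood in the LM fraction under each treatment. KRT7 was at 12.8 or less in 7 of the 8 LM libraries of the antagonist groups, and KRT8, KRT18 and KRT19 were lower with EP+RU486 than in sham mice. KRT7 read 4.05, 1.79, 112.4 and 12.8 in the 4 EP+TPA libraries. It read 2.99, 12.1, 0.169 and 1.32 in the 4 EP+RU486 libraries, against 151.9, 448.6 and 109.6 with EP and 150.1, 291.3, 229.3 and 230.4 in sham. All EP+RU486 libraries lay under all EP and sham libraries, and among EP+TPA libraries only mouse 332 reached the range of EP. The log2 fold of KRT7 was -5.83 for EP+RU486 against EP (SE 1.13, adjusted p 0.00606, limma) and -6.00 against sham (SE 1.05, adjusted p 0.00194). For EP+TPA it was -4.18 against sham (SE 1.05, adjusted p 0.0191), a call lost without EP+TPA mouse 312 or without sham mouse 326. Against EP it was -4.01 (SE 1.13, adjusted p 0.0645) with mouse 332 and -5.08 (SE 0.84, adjusted p 0.00163) without it. Adjusted p ran from 0.00163 to 0.181 over leaving out each library in turn.

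KRT8 and KRT18, the obligate partners of the simple epithelial filament, moved together in LM. KRT8 read 241.2, 79.7, 491.6 and 749.4 in EP+RU486 libraries, against 968.3, 2561 and 883.1 with EP and 2592, 1649, 1549 and 2129 in sham. KRT18 read 358.3, 61.9, 775.7 and 1092 with EP+RU486, against 2341 to 3587 in sham. Every EP+RU486 library lay under every sham library for both genes, and mouse 313 was the lowest of all for both. Against sham, KRT8 fell by 2.73 on the log2 scale (SE 0.64, adjusted p 0.00941) and KRT18 by 2.96 (SE 0.78, adjusted p 0.019). Both calls were lost with the lowest value of the set taken off before the log, an alternative chosen after seeing the data (log2 folds -4.50 and -4.54, adjusted p 0.0869 and 0.104). Against EP, KRT8 differed by -2.16 (SE 0.69, adjusted p 0.047), a call lost in 6 of 7 fits that left out a library, with folds of -1.54 to -2.43 there, while KRT18 did not pass (log2 fold -1.58, SE 0.85, adjusted p 0.208). KRT18 averaged 572 ± 454 with EP+RU486 and 1340 ± 1050 with EP (SD, n = 4 and 3), and those groups overlapped.

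KRT19, the smallest keratin, which lacks most of the tail domain, stood at 370.5 to 669.7 in LM EP+RU486 libraries, against 852.8 to 2949 with EP and 1423 to 2299 in sham. The groups did not overlap. Its log2 fold was -1.60 against EP (SE 0.41, adjusted p 0.0161) and -2.10 against sham (SE 0.38, adjusted p 0.00142). Without EP mouse 311, which held the highest KRT19 of the LM libraries, the fold against EP was -1.05 (adjusted p 0.0626, with 0.0135 to 0.0626 over the libraries left out). The lowest KRT19 value of the set was 370.5, so the EP+RU486 values lay on or near the offset and these folds are compressed. With the lowest value taken off, an alternative chosen after seeing the data, the log2 folds were -5.41 against EP and -6.14 against sham. With EP+TPA, KRT8, KRT18 and KRT19 did not pass against EP or sham; KRT8, for example, averaged 1300 ± 739 with EP+TPA, 1470 ± 945 with EP (n = 3) and 1980 ± 480 in sham (SD, n = 4 otherwise).

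**Figure D1:**
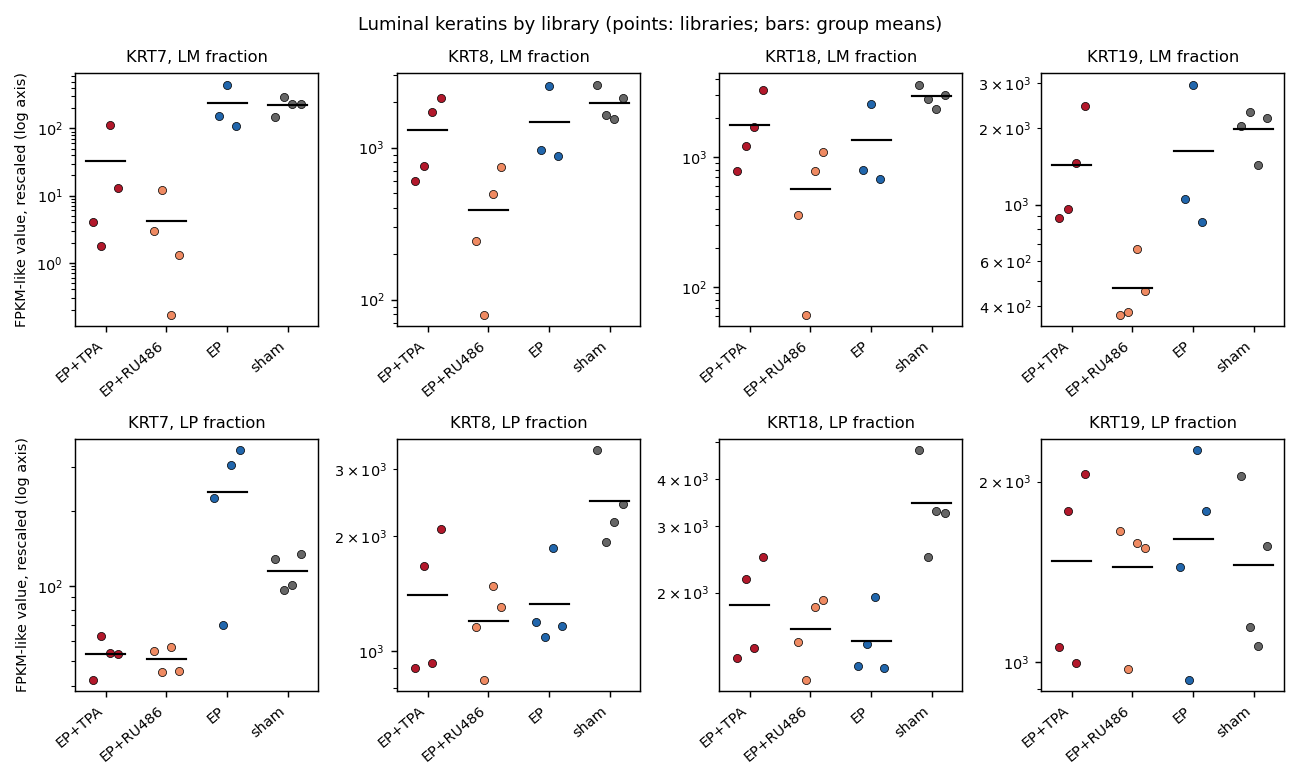
Rescaled FPKM-like values (log axis) of KRT7, KRT8, KRT18 and KRT19 in each LM library (top) and LP library (bottom) by treatment; points are libraries and bars are group means. In LM the 4 EP+RU486 libraries hold 0.169 to 12.1 of KRT7, below every EP and sham library, and in LP KRT7 is at 63.1 or less in every library of both antagonist groups.

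Of the 8 keratins in LM, 1 rose and 0 fell with EP against sham, where 19.1% of all genes tested were called. With EP+TPA, 1 fell against EP (4.35% of genes called) and 1 fell against sham (15.7%). With EP+RU486, 4 fell against EP (18.3%) and 4 fell against sham (21.4%). In the same LM comparisons the luminal mature list fell too. Of its 19 tested genes, 10 were lower with EP+TPA than with EP and 11 were lower with EP+RU486 than with EP, among them PRLR and the growth factor AREG, both listed at 0 in all EP+RU486 libraries. The luminal progenitor list had 12 of 20 genes higher with EP+RU486 than with EP. Summed endothelial markers were 0.105 to 557.1 in EP+TPA, 186.9 to 523.4 in EP+RU486, 51.5 to 85.0 in EP and 44.0 to 144.4 in sham LM libraries. The part of these other markers in the keratin differences was not tested.

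The promoters of KRT7, KRT8 and KRT18 are shown because KRT7 had the largest fold as fitted and KRT8 and KRT18 moved together. The lowest values of the LM set differed between genes, with 0.169 for KRT7 and 370.5 for KRT19, so the order of the folds depends on the offsets. Promoter sequences (RefSeq, GRCm38.p6, 250 bases before and 50 after the annotated gene start) were found for 5 of the 8 keratins, namely KRT7, KRT8, KRT18, KRT5 and KRT14; KRT15, KRT17 and KRT19 were not matched. All 3 lie on chromosome 15, at chr15:101412153-101412452 (KRT7, plus strand), chr15:102004293-102004592 (KRT8, minus strand) and chr15:102027966-102028265 (KRT18, plus strand). Capitals mark the TATA box TATAAA, the GC box GGGCGG and the steroid response half-site TGTTCT, on either strand.
KRT7: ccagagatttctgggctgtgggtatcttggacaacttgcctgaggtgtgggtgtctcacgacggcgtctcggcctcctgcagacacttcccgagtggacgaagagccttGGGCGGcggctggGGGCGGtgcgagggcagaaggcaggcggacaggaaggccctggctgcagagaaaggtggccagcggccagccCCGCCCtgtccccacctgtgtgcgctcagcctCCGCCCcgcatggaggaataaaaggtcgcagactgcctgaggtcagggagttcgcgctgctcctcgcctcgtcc
KRT8: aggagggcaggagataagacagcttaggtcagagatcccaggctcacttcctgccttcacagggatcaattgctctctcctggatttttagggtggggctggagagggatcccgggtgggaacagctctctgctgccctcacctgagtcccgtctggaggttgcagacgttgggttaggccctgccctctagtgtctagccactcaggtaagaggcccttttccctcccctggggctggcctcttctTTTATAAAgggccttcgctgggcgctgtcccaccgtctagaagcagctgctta
KRT18: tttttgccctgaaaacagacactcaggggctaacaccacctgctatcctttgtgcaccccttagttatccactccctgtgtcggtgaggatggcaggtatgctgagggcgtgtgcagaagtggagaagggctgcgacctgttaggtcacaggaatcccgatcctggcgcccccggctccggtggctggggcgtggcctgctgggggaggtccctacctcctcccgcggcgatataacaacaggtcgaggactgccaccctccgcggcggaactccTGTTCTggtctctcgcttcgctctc
The KRT7 promoter held 4 matches of the GC box, and 35.7% of the 32851 promoters of this length hold at least 1. The KRT8 promoter held TATAAA at the annotated start, in a stretch that matches it on both strands with overlap, against 13.6% of promoters. The KRT18 promoter held 1 half-site TGTTCT, which 19% of promoters hold. None of the 5 promoters held the full palindromic steroid response element (0.00913% of all promoters), the palindromic estrogen response element (0.07%), the forkhead site TGTTTAC (3.65%), the STAT site TTCNNNGAA (8.3%) or the AP-1 site TGACTCA (5.2%). The AP-2 site GCCNNNGGC, found in 16.6% of promoters, was present in those of KRT7 and KRT18. KRT8 and KRT18 are neighbours on the chromosome.

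The basal keratins in LM lay at their offsets in most libraries, with KRT15 the exception. KRT15 read 22.6, 21.3, 39.3 and 25.5 with EP+TPA and 22.0, 20.9, 22.1 and 20.9 with EP+RU486. It read 47.8, 46.5 and 42.0 with EP, against 21.1, 24.0, 27.8 and 26.1 in sham. All 3 EP libraries lay above every other LM library, and mouse 332 was the next highest. KRT15 rose with EP against sham by a log2 fold of 0.86 (SE 0.19, adjusted p 0.0071), and it was lower than with EP in EP+RU486 (log2 fold -1.04, SE 0.19, adjusted p 0.00286) and in EP+TPA (log2 fold -0.76, SE 0.19, adjusted p 0.0379). The EP+TPA call was lost in 6 of 7 fits that left out a library and kept without mouse 332.

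KRT5, KRT14 and KRT17 passed in none of the 6 LM comparisons. Their highest values came from single libraries. EP+RU486 mouse 333 held 82.0 for KRT5, 517.9 for KRT14 and 329.2 for KRT17, while the other 3 EP+RU486 libraries held 44.7 to 45.8 for KRT5, 254.4 to 258.1 for KRT14 and 155.4 to 157.1 for KRT17. That library also had the highest sum of 20 basal and myoepithelial markers of the LM libraries, 861.9, against 34.1 to 458.6 in the other 14. KRT14 was at 415.5 in EP+TPA mouse 332, whose basal marker sum was 65.6. In EP, KRT14 read 314.9, 256.8 and 332.8, against 254.9 to 268.5 in sham (log2 fold 0.21, SE 0.24, adjusted p 0.587).

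**Figure D2:**
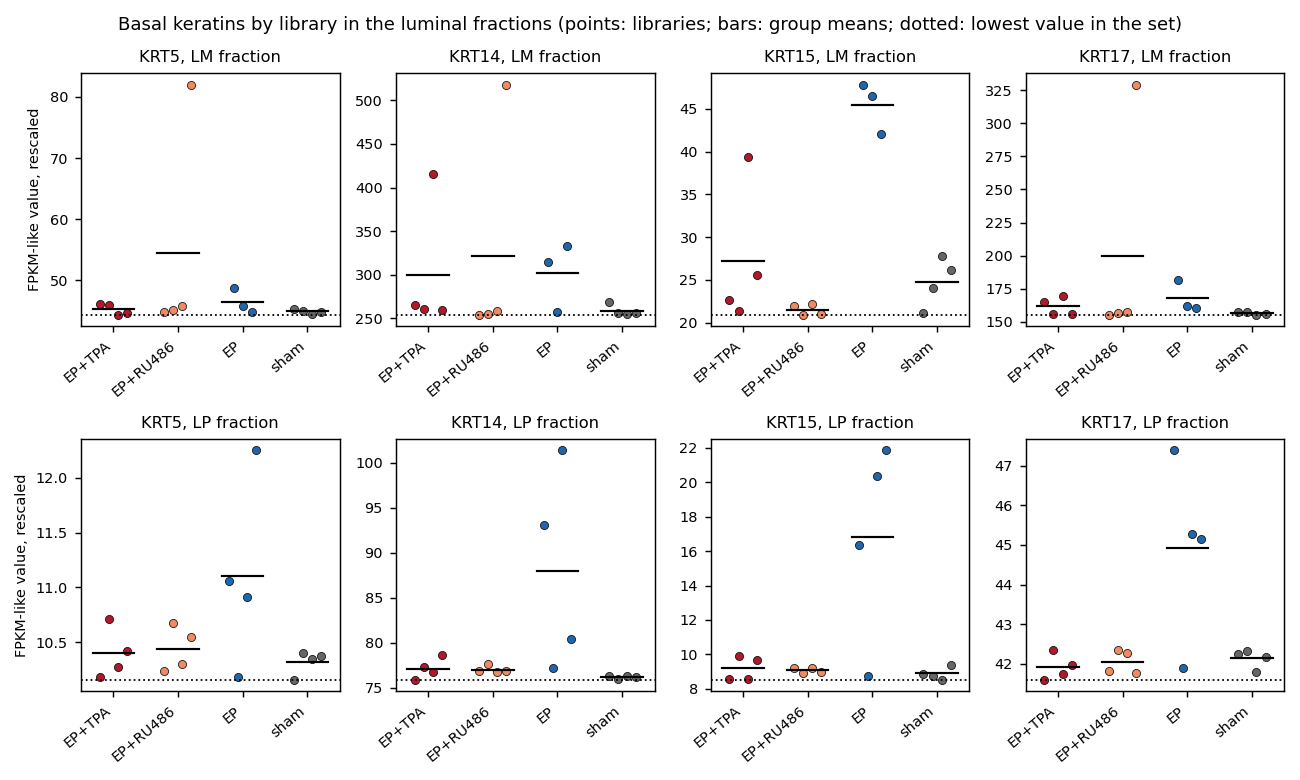
Rescaled FPKM-like values (linear axes that do not start at 0) of KRT5, KRT14, KRT15 and KRT17 in each LM library (top) and LP library (bottom) by treatment; points are libraries, bars are group means and dotted lines mark the lowest value of the set. KRT15 stands at 42.0 to 47.8 in the 3 LM EP libraries and at 16.4 to 21.9 in 3 of the 4 LP EP libraries, while most other libraries sit near the dotted line.

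In the LP fraction KRT18 was lower in all 3 hormone groups than in sham, its partner KRT8 was lower with EP+RU486 and with EP, and KRT7 was lower in both antagonist groups than with EP. KRT18 read 1340, 2171, 1428 and 2491 with EP+TPA and 1484, 1176, 1833 and 1914 with EP+RU486. It read 1281, 1462, 1942 and 1267 with EP, against 4767, 2487, 3283 and 3246 in sham. The EP and EP+RU486 libraries all lay under all sham libraries, and EP+TPA mouse 336 just reached the lowest sham library. KRT18 was lower than in sham with EP (log2 fold -1.19, SE 0.24, adjusted p 0.00135), with EP+RU486 (-1.09, SE 0.24, adjusted p 0.00849) and with EP+TPA (-0.90, SE 0.24, adjusted p 0.0362). The EP+TPA call was lost in 6 of 8 fits that left out a library, with folds of -0.73 to -0.99 in them. Of the 20 progenitor markers, 2 rose and 0 fell with EP+TPA, 2 rose and 2 fell with EP+RU486, and 1 rose and 12 fell with EP against sham (median log2 folds -0.38, -0.33 and -1.40). Of 19 tested luminal mature markers, 9 rose and 1 fell with EP against sham. EP mouse 311 held 1462 for KRT18 and 1088 for KRT8, with a progenitor marker sum of 13230, against 20180 to 29640 in sham. The part of these markers in the KRT8 and KRT18 values was not tested.

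KRT8 in LP averaged 1400 ± 583 with EP+TPA, 1190 ± 271 with EP+RU486, 1330 ± 362 with EP and 2480 ± 628 in sham (SD, n = 4 each). Its log2 fold against sham was -0.90 with EP (SE 0.28, adjusted p 0.0192), lost without sham mouse 301 or EP mouse 306. It was -1.05 with EP+RU486 (SE 0.28, adjusted p 0.0221), lost without sham mouse 301 or EP+RU486 mouse 308, and -0.89 with EP+TPA (SE 0.28, adjusted p 0.0695). None of the folds of KRT8 and KRT18 between an antagonist group and EP passed in LP. KRT19 passed in no LP comparison, with log2 folds of -0.12 to 0.12 and group means of 1440 to 1600.

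KRT7 in LP read 42.2, 63.1, 54.2 and 53.5 with EP+TPA and 55.1, 45.2, 57.3 and 45.9 with EP+RU486. It read 225.5, 69.9, 304.2 and 349.2 with EP, against 128.5, 96.2, 101.2 and 134.5 in sham. Every antagonist library lay under every EP and sham library, and mouse 311 was the EP library below sham. KRT7 was lower than with EP by a log2 fold of -1.92 in EP+TPA (SE 0.36, adjusted p 0.00183) and of -1.98 in EP+RU486 (SE 0.36, adjusted p 0.00151). Against sham it was -1.10 in EP+TPA (SE 0.36, adjusted p 0.0826) and -1.16 in EP+RU486 (SE 0.36, adjusted p 0.0467, lost in 8 of 8 fits that left out a library). EP against sham gave 0.82 (SE 0.36, adjusted p 0.0867) with mouse 311 and 1.33 (SE 0.17, adjusted p 2.16e-05) without it, and adjusted p ran from 2.16e-05 to 0.249 over the libraries left out.

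KRT15 in LP was highest with EP, as KRT7 was, but its antagonist libraries did not lie under sham. It stood at 8.58 to 9.91 with EP+TPA and at 8.90 to 9.23 with EP+RU486. It read 16.4, 8.74, 20.4 and 21.9 with EP, against 8.88, 8.77, 8.52 and 9.40 in sham. Mouse 311 was again the EP library at the sham level, and the other 3 EP libraries exceeded every library of the other groups. The log2 fold was 0.78 for EP against sham (SE 0.19, adjusted p 0.0046), -0.74 for EP+TPA against EP (SE 0.19, adjusted p 0.012) and -0.75 for EP+RU486 against EP (SE 0.19, adjusted p 0.0104). The last 2 of these calls were lost when only the compared groups entered the fit. The libraries with high KRT7 and KRT15 were those with the high luminal mature marker sums (1059 to 1827), and whether those markers account for the values was not tested.

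KRT14 and KRT17 in LP moved within a narrow range above their offsets. KRT14 read 93.1, 77.1, 101.4 and 80.4 with EP, against 75.9 to 76.3 in sham, and these groups did not overlap, but the log2 fold of 0.20 (SE 0.09, adjusted p 0.0927) did not pass. KRT17 had a fold of 0.09 (adjusted p 0.336). With values rescaled from 0, the folds were -0.05 for KRT14 and -0.17 for KRT17, the opposite direction. With the offset taken off before the log, the fold of KRT14 was 2.73 (SE 0.60, adjusted p 0.0028), and that of KRT17 was 1.28 (SE 0.38, adjusted p 0.0164). Both alternatives were chosen after seeing the data, and adjusted p for KRT14 ran from 0.0028 to 0.726 over its alternatives. With the offset taken off, both genes were also lower in EP+TPA and in EP+RU486 than with EP, with log2 folds of -2.13 and -2.07 for KRT14 and of -1.53 and -1.37 for KRT17. KRT5 in LP stayed within 10.2 to 12.3 in all 16 libraries and passed in no comparison.

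Of the 8 keratins in LP, 1 rose and 2 fell with EP against sham, where 35.5% of all genes tested were called. With EP+TPA, 2 fell against EP (18.8%) and 1 fell against sham (6.54%). With EP+RU486, 2 fell against EP (20.9%) and 3 fell against sham (12.7%). Differences of a fold between LM and LP were not tested, because the sets had been adjusted apart. Comparisons with EP share the EP libraries, and those with sham share the sham libraries, so their folds are not independent of each other.

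**Figure D3:**
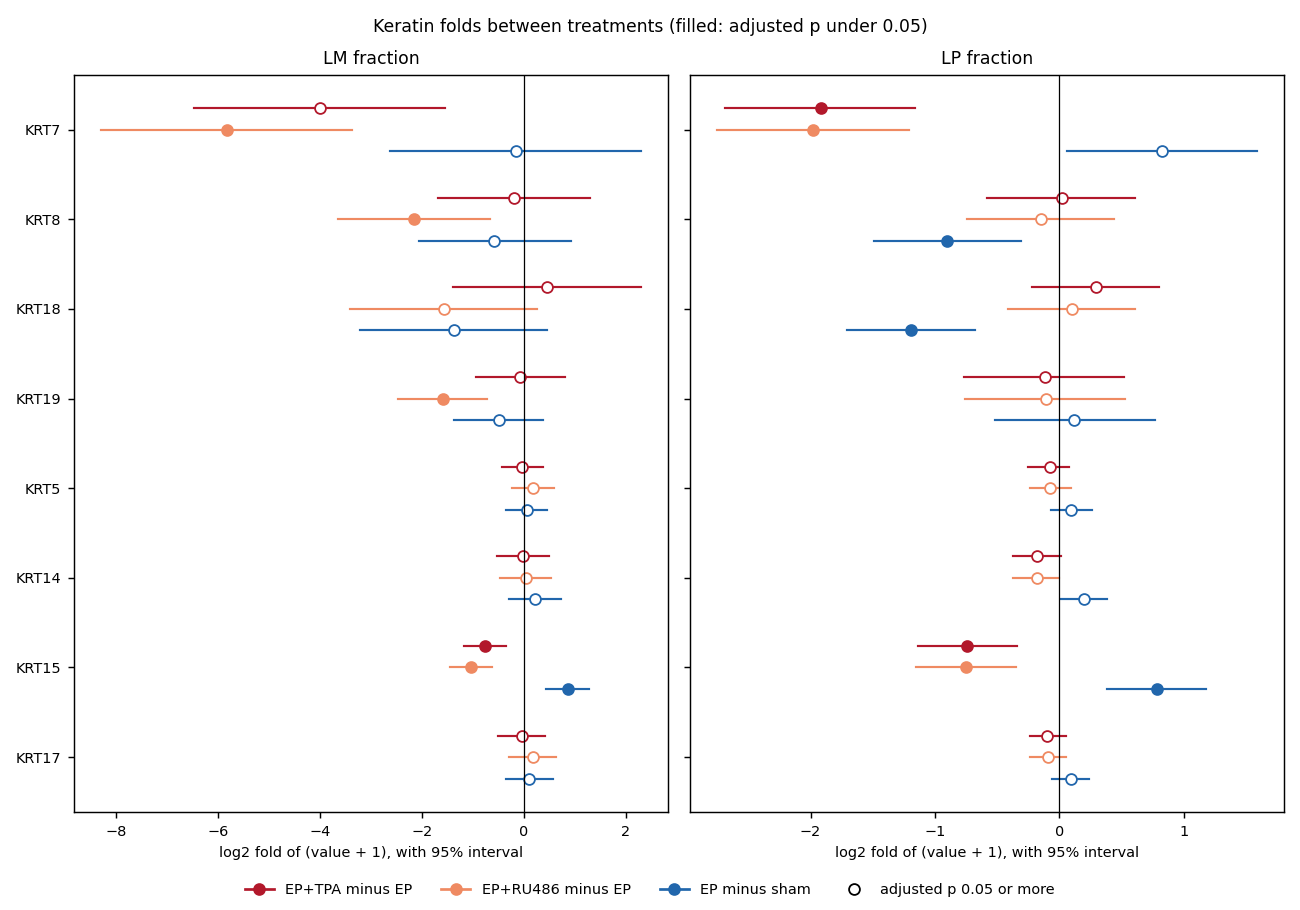
Log2 folds of (value + 1) with 95% intervals for the 8 keratins in LM (left) and LP (right; the axes differ in scale) for EP+TPA minus EP, EP+RU486 minus EP and EP minus sham; filled points have an adjusted p under 0.05. KRT7 and KRT15 are lower with both antagonists than with EP in LP, while KRT8 and KRT18 are lower with EP than in sham there.

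EP+TPA was next set against EP+RU486, whose agents are related steroids that antagonize the same receptor. Whether their doses matched is not given in the sources used here, so the values stand side by side. None of the 8 keratins passed in LM, LP or MSC in these 3 pairs, and 0% of all genes tested were called in each of them by limma, with 1596, 200 and 367 genes at an unadjusted p under 0.05 in LM, LP and MSC. In LM the folds of the luminal chains were positive, 1.96 for KRT8 (95% interval 0.58 to 3.35, adjusted p 0.307), 2.03 for KRT18 (0.33 to 3.74, adjusted p 0.32) and 1.53 for KRT19 (0.72 to 2.34, adjusted p 0.304). KRT19 read 886.8 to 2432 with EP+TPA and 370.5 to 669.7 with EP+RU486, without overlap. In LP the intervals were narrower, from -0.71 to 0.82 for KRT7, from -0.43 to 0.75 for KRT8 and from -0.32 to 0.70 for KRT18. An adjusted p above the threshold does not show that the agents acted alike.

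In the MSC fraction no keratin passed in any of the 6 comparisons of treatments. Of all genes tested, 0.0824% were called for EP+TPA against EP (10 genes, all lower) and 0% in the other 5 comparisons. Unadjusted p under 0.05 was reached by 321 to 691 genes in those 5. KRT14 read 3272, 2.59, 0 and 620.1 in EP+TPA mice 323, 312, 328 and 336, and 780, 1986, 0 and 0 in EP+RU486 mice 308, 324, 313 and 329. It read 228.2, 1793, 135.3 and 733.3 in EP mice 306, 322, 311 and 327, against 1308, 369.5, 1179 and 909.2 in sham mice 305, 310, 326 and 334. Over both sets all groups overlapped. Within set 3, KRT14 was 0 in both EP+RU486 libraries, against 135.3 and 733.3 with EP and 369.5 to 1179 in sham. Values under 3 could occur only in set 3, since the lowest value of set 2 was 75.86. There they occurred only in the antagonist groups. The log2 fold of KRT14 was -4.03 for EP+TPA against sham (95% interval -8.66 to 0.60, adjusted p 0.798) and -5.87 for EP+RU486 against sham (adjusted p 1).

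KRT17 and KRT5 ran with KRT14 across the MSC libraries. KRT17 was listed at 0 in mice 328 (EP+TPA) and 313 (EP+RU486), as was KRT5, and both reached their highest values, 1824 and 524.8, in EP+TPA mouse 323. The MSC library of mouse 323 had the lowest rescaling factor, 0.529, and the fewest genes with a value above 1, 9397. As deposited, it held 984.5 for KRT17 and 282.4 for KRT5, against at most 867.8 and 240.4 in the other MSC libraries. Pearson's r between KRT14 and KRT17 was 0.89 over the 16 MSC libraries after centring each set, and 0.86 between KRT5 and KRT14. The points share their library and its cell makeup. The 4 libraries with KRT14 under 3 were all of set 3. Their summed basal and myoepithelial markers were 134.8 to 1191, against 429.3 to 3706 in the other set 3 libraries. In those 4 libraries the endothelial marker sum was 746.7 to 1747 and the adipocyte marker sum 309.3 to 2567. In the other set 3 libraries the endothelial sum was 0 to 1540 and the adipocyte sum 0 to 3965, so the ranges overlapped. The luminal progenitor marker sum was 1369, 4763, 1948 and 5062 in MSC of mice 312, 328, 313 and 329. It was 1109 to 2805 in the other set 3 libraries, so mice 328 and 329 lay above them. The part of these other cell types in the MSC keratin values was not tested.

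KRT15 in MSC was high in few libraries. It read 21.0 in EP+TPA mouse 323 and 0 in mice 312, 328 and 336, and 19.9, 46.3, 0 and 0 in EP+RU486. It read 9.84, 505.4, 29.8 and 124.5 with EP, against 14.3, 2.06, 289 and 0 in sham. EP mouse 322 and sham mouse 326 were the highest, and the groups overlapped over both sets. Within set 3, KRT15 was 0 in all antagonist libraries, 29.8 and 124.5 with EP and 0 to 289 in sham. The log2 fold was -4.32 for EP+TPA against EP (SE 1.69, adjusted p 0.288) and -3.60 for EP+RU486 against EP (SE 1.66, adjusted p 0.902). The luminal keratins in set 3 MSC libraries stayed within 1.48-fold of their lowest deposited value or less, as for KRT7 with 87.3 to 128.8, and none passed.

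**Figure D4:**
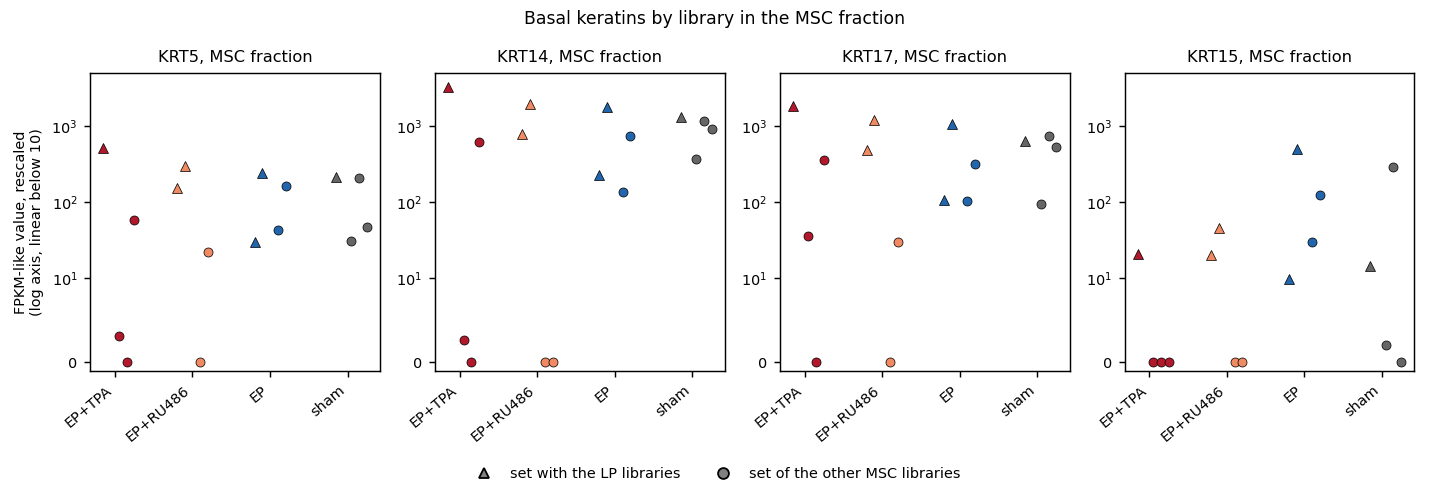
Rescaled FPKM-like values (log axis, linear below 10) of KRT5, KRT14, KRT17 and KRT15 in each of the 16 MSC libraries by treatment; triangles are the 6 libraries of set 2 and circles the 10 of set 3. KRT14 spans 0 to 3272 with EP+TPA and 0 to 1986 with EP+RU486, and 369.5 to 1308 in sham.

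MSC and LP could be compared in the 12 libraries of mice 305, 306, 308, 322, 323 and 324, which shared a set. The luminal keratins were lower and KRT5, KRT14 and KRT17 higher in MSC than in LP in 6 of 6 mice. Of the 8 keratins, 3 were higher and 4 lower in MSC, where 44.5% of all genes tested were called. KRT14 read 1308, 228.2, 780, 1793, 3272 and 1986 in MSC of those mice in that order, against 75.9, 93.1, 77.6, 101.4, 77.3 and 76.7 in LP. The ranges did not overlap, and MSC of EP mouse 306 came closest to LP. Its basal and myoepithelial marker sum was 2108, against 3258 to 7355 in the other MSC libraries of these mice. Its adipocyte marker sum was 10790, against 120.1 to 3444 in them. KRT14 differed by a log2 fold of 3.81 (SE 0.52, adjusted p 0.000335), KRT5 by 3.98 (SE 0.50, adjusted p 0.000192) and KRT17 by 3.88 (SE 0.54, adjusted p 0.000384). These folds are compressed, since LP lay on the offset. Of 10 endothelial markers tested, 8 were higher in MSC. Their sum was 75.9 to 2291 in these MSC libraries and 3.10 to 232.5 in the LP libraries of the same mice. The LP libraries of EP mice 306 and 322 were among those that went against their label. The part of other cell types in the keratin differences between MSC and LP was not tested.

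KRT19 was the luminal chain with the largest difference, at 244 ± 23.3 in MSC and 1530 ± 461 in LP (SD, n = 6 each; log2 fold -2.59, SE 0.23, adjusted p 1.33e-05). KRT18 averaged 416 ± 120 in MSC and 1820 ± 507 in LP (log2 fold -2.11, SE 0.24, adjusted p 8.72e-05). KRT8 averaged 464 ± 160 in MSC and 1500 ± 418 in LP (log2 fold -1.71, SE 0.30, adjusted p 0.00131), a call lost with the offset taken off (log2 fold -3.66, adjusted p 0.0718). KRT7 averaged 25.7 ± 10.6 in MSC and 132 ± 107 in LP (log2 fold -2.03, SE 0.44, adjusted p 0.00495). The ratio of MSC to LP ran over the 6 mice from 0.112 to 0.234 for KRT19 and from 0.0675 to 0.688 for KRT7, whose LP level differed most between treatments. The MSC libraries lay near the lowest values of the set, 221.6 to 273.4 for KRT19 and 16.9 to 43.4 for KRT7, so these ratios and the luminal folds are compressed too (KRT19 had a log2 fold of -6.94 with the offset taken off). KRT15 did not pass (103 ± 198 in MSC, 12.3 ± 4.92 in LP, log2 fold 1.47, SE 0.73, adjusted p 0.122) and was higher in MSC in 5 of 6 mice; without mouse 306 the fold was 1.90 (adjusted p 0.0136, with 0.0136 to 0.264 over the mice left out).

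**Figure D5:**
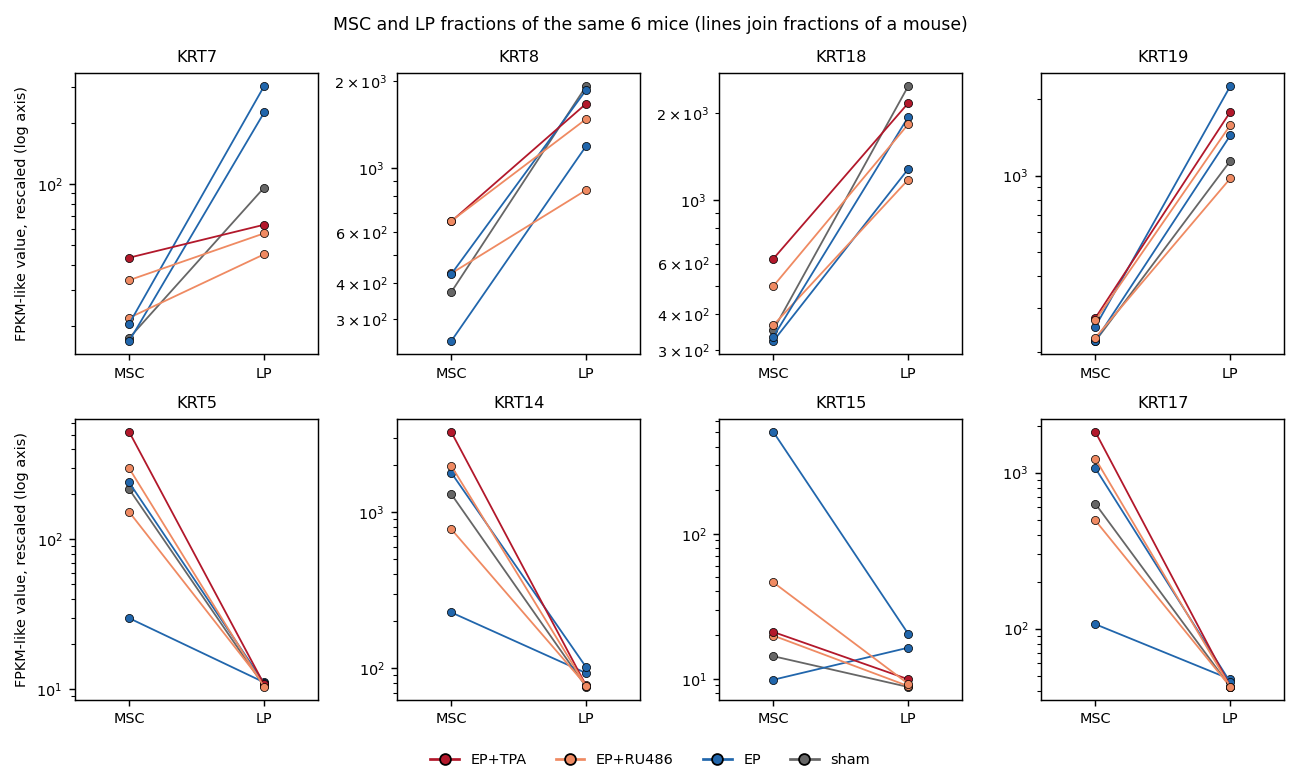
Rescaled FPKM-like values (log axis) of the 8 keratins in the MSC and LP fractions of the same 6 mice; each line joins the fractions of a mouse, coloured by treatment. Lines fall towards MSC for KRT7, KRT8, KRT18 and KRT19 and rise towards MSC for KRT5, KRT14 and KRT17 in 6 of 6 mice.

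The order of the luminal chains could be read within LP, where FPKM is per length. In LP EP libraries KRT19 (933.3 to 2258), KRT18 (1267 to 1942) and KRT8 (1088 to 1866) overlapped each other. In sham LP libraries KRT18 was highest (2487 to 4767), followed by KRT8 (1924 to 3365), KRT19 (1063 to 2041) and KRT7 (96.2 to 134.5). The sham ranges of KRT18 and KRT8 overlapped, as did those of KRT8 and KRT19, and KRT7 lay apart. Each value includes the offset of its gene, and the lowest values of that set were 322.6 for KRT18, 250.8 for KRT8, 221.6 for KRT19 and 16.9 for KRT7.

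The other genes of the filament system were taken from lists. Of 28 other keratins, 8 could be tested in LM, 5 in LP and 7 in MSC against LP. KRT23, an epithelial type I keratin, averaged 18.7 ± 18.2 in LM with EP (SD, n = 3) and was listed at 0 in all 4 LM sham libraries (adjusted p 0.0302, limma). In LP it averaged 8.86 with EP and 2.01 in sham (log2 fold 1.54, adjusted p 0.000666) and was lower in both antagonist groups than with EP. KRT80 was lower than in sham in LP with EP+TPA (log2 fold -1.97, adjusted p 0.00107), EP+RU486 (-2.23, adjusted p 0.000257) and EP (-1.75, adjusted p 0.000371), the same 3 comparisons in which KRT18 was lower. KRT6A, a keratin of activated epithelium, was lower than with EP in LP with EP+TPA (log2 fold -2.14, adjusted p 0.00358) and with EP+RU486 (-2.56, adjusted p 0.00107). In LM, 2 of 8 other keratins were lower with EP+RU486 than in sham, where 21.4% of all genes were called. In MSC against LP, KRT16 (log2 fold 2.95, adjusted p 0.00114) and KRT42 (2.58, adjusted p 0.00286) were higher. These were the 2 of 7 that rose, and 1 fell (44.5% of all genes called).

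Among 17 tested desmosome and hemidesmosome genes in LM, 5 fell with EP+TPA, 8 fell with EP+RU486 and 5 fell with EP against sham, and 1 rose with EP+RU486. The shares of all genes called in these comparisons were 15.7%, 21.4% and 19.1%. The median log2 fold of the list was -0.68 with EP+TPA, -0.73 with EP+RU486 and -0.36 with EP, beside 0.03, 0.04 and 0.06 over all genes. DSC2, a desmosomal cadherin, averaged 1.30 with EP+TPA, 0.745 with EP+RU486 and 6.90 in sham (adjusted p 0.00188 and 0.000516). The linker DSP, which ties keratins to the desmosome, averaged 1.85, 1.88 and 6.15 in the same groups (adjusted p 0.00244 and 0.00197). In LP against EP, 2 genes of that list fell with EP+TPA and 2 with EP+RU486, namely DSC2 and PERP in each, and PKP4 rose with EP+RU486. These counts of 17 were not above the shares of all genes called there (18.8% and 20.9%). JUP, the plaque protein plakoglobin, averaged 85.4 with EP+TPA, 78.1 with EP+RU486, 89.8 with EP and 149 in sham LP libraries and was lower than in sham in all 3 (adjusted p 0.0427, 0.0121 and 0.0201). In MSC against LP, 7 of 18 rose and 4 fell, with COL17A1, a hemidesmosome collagen, at 34.6 against 2.26 (log2 fold 3.21, adjusted p 0.000126) and the desmosome plaque protein PKP2 at 3.88 against 17.0 (-1.88, adjusted p 7.74e-06).

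Of 22 epithelial transcription factors linked to keratin genes, FOXA1 was lower than with EP in LM with EP+TPA (0.828 against 23.6, log2 fold -3.89, adjusted p 0.0035) and was listed at 0 in all 4 EP+RU486 libraries. In LP it was lower than with EP in both antagonist groups (log2 folds -2.63 and -2.50, adjusted p 0.00167 and 0.00233). Of the 22 factors in LP, 4 rose and 2 fell with EP+TPA against EP, where 18.8% of all genes were called. With EP+RU486 against EP, 5 rose and 4 fell (20.9%). ELF3, an epithelial ETS factor, was lower than in sham in LP with EP+TPA (log2 fold -1.26, adjusted p 0.00145), EP+RU486 (-1.11, adjusted p 0.00246) and EP (-2.01, adjusted p 3.42e-06). TRP63, which drives KRT5 and KRT14 in basal cells, averaged 13.6 in MSC and 1.04 in LP (log2 fold 2.65, adjusted p 0.000879). Of the 22 factors, 1 was higher and 12 were lower in MSC than in LP, where 44.5% of all genes were called. The median log2 fold of the list was -0.97, beside -0.27 over all genes. Of 10 other filament genes tested in LP, 6 rose and 1 fell with EP against sham, where 35.5% of all genes were called. The 1 that fell was LMNA, a nuclear lamin, which averaged 469 with EP and 1400 in sham LP libraries (log2 fold -1.54, adjusted p 0.00267). In MSC against LP, 4 of 12 such genes rose and 3 fell (44.5% of all genes called). VIM averaged 222 in MSC and 28.2 in LP (log2 fold 2.86, adjusted p 1.28e-05). Of 19 tested proliferation genes, 18 rose with EP against sham in LP, where KRT8 and KRT18 fell, and 18 fell against EP with either antagonist.

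Across libraries KRT8 and KRT18 followed each other. Pearson's r between KRT8 and KRT18 was 0.97 over 15 LM libraries and 0.95 over 16 LP libraries, and 0.91 and 0.92 without the 2 libraries farthest from the median. KRT8 and KRT19 had an r of 0.90 in LM and 0.56 in LP. Between KRT5 and KRT14, which lay near their offsets in these fractions, r was 0.75 in LM and -0.40 without the 2 farthest libraries, and 0.45 and 0.67 in LP. The genes with the likest pattern to the mean of KRT8 and KRT18 were PPP2CB (r 0.951), PAWR (0.939) and VPS37B (0.932) among 11890 genes over the 15 LM libraries. In LP they were SFN (r 0.959), LYPD3 (0.953) and HBEGF (0.946) among 11451 genes over 16 libraries. For the mean of KRT5 and KRT14 they included CDA (r 0.940) and RHBDL3 (0.939) over 16 MSC libraries, and were TIMP1 (0.966), SCUBE2 (0.964) and FCNA (0.963) in LP, where Spearman's rho was 0.488 to 0.609. Libraries share depth and cell makeup across genes, and these values describe likeness only.

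Reads of near-identical copies limit 3 of the genes. Of all stretches of 75 bases, the read length, in the longest transcript of each keratin (GENCODE vM21), 23.5% of KRT8 recurred in transcripts of other genes (the pseudogene Krt8-ps and Gm36026). The share was 7.77% for KRT5 (with Krt6a and Krt6b among the others) and 5.91% for KRT14 (with Krt16), and it was 0% for KRT7, KRT18, KRT19, KRT15 and KRT17. How such reads were assigned is not given in the sources used here.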

How the data were processed

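RNA of FACS-sorted fractions was sequenced as paired 75-base reads. The tools STAR, Cufflinks and DESeq2 and the build mm9 are credited to the submitters' processing notes; versions and roles are not given in the sources used here. The labels speak of counts, but the deposited values were not whole and were treated as FPKM that the authors had adjusted by gene. The 3 sets were inferred from identical values: libraries of a set shared 1382 to 6488 of them, libraries of different sets 0. Symbols that had turned into dates (27) were left out.

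Libraries were rescaled within a set by median-ratio factors (0.529 to 1.317). Only what exceeded the gene's lowest value in its set was divided by the factor. This departs from the planned rescaling above lowest values that libraries share, which moved offsets of genes whose lowest value is not shared. Genes needed a value of 1 in 3 libraries and 3 libraries above the lowest value. limma 3.58.1 (R 4.3.3) was fitted to log2(value + 1) with trend and robust empirical Bayes, all 4 treatments of a fraction together, with a term for the set in MSC, and for MSC against LP with a term for treatment. Benjamini-Hochberg adjustment ran across every gene tested in a comparison, with a threshold of 0.05. The procedure was tested on simulated data.

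All 8 keratins are named. From each list at most 6 called genes per comparison are named, those with the largest folds, and the 3 genes likest to a keratin pair, of which 1 is not reported here. The members and lists were chosen with earlier results of these data known. MSC and LP libraries of a mouse are paired because they come from the same animal. Correlations of their deviations were 0.347, -0.016, 0.214, 0.283, 0.226 and 0.121. Nothing in the labels ties treatment groups to litters or days, and each sample was taken as an animal. Alternatives were the deposited values, a pseudocount of 0.1, no filter, only the compared groups, each library left out, for MSC no set term or set 3 alone, and the replicate block.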

Additional observations from a re-analysis of the deposited data

Results flagged for a closer look

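Of 88 groups of 4 libraries, 1 for each keratin in each group of that size, 11 held a library whose gap to the nearest other passed Dixon's 95% critical value. Chance flags about 1 in 20 groups. MSC values were compared after centring each set, so a value there can stand out without being the extreme of the group.

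EP+RU486 mouse 333 stood above the other LM libraries of its group for KRT5 (82.01), KRT14 (517.9) and KRT17 (329.2). EP+TPA mouse 332 was high for KRT14 in LM (415.5), and so was sham mouse 301 (268.5). In LP, EP+RU486 mouse 308 was low for KRT19 (974.9) and high for KRT14 (77.63, where the others were at 76.7 to 76.84). In MSC, KRT7 stood apart in EP+TPA mouse 323 (43.44) and in EP+RU486 mouse 324 (33.67), both high for their set. KRT8 was low in EP mouse 306 (250.8). KRT15 was 21.03 in EP+TPA mouse 323, the one library of set 2 in its group, and was listed at 0 in the 3 others, all of set 3. That gap lies between sets and is no difference in level, since the other set 2 MSC libraries held 9.838 to 505.4.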

How the results depend on the processing

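Of 29 calls of a keratin in a comparison, 16 held under every alternative run and 13 were lost under at least 1; 12 further pairs were called under at least 1 alternative. No called fold changed sign. The number of keratins called moved as follows. With only the compared groups fitted, it was 0 for EP+TPA against EP and 0 for EP+TPA against sham in LM (1 each otherwise), and 1 for EP+TPA against EP and 1 for EP+RU486 against EP in LP (2 each otherwise). With the lowest value taken off, an alternative chosen after seeing the data, it was 2 for EP+TPA against EP and 2 for EP+RU486 against sham in LM (1 and 4 otherwise). In LP it was then 4 for EP+TPA against EP, 4 for EP+RU486 against EP, 0 for EP+TPA against sham and 5 for EP against sham (2, 2, 1 and 3 otherwise). For EP+TPA against sham in LP it was also 0 with the values as deposited and 0 without the filter. Leaving out a library gave 1 to 2 for EP against sham, 0 to 2 for EP+TPA against EP, 2 to 4 for EP+RU486 against EP, 0 to 1 for EP+TPA against sham and 4 for EP+RU486 against sham in LM. In LP it gave 2 to 5 for EP against sham, 0 to 2 for EP+TPA against sham and 1 to 2 for EP+RU486 against sham. It gave 7 to 8 for MSC against LP. With the lowest value taken off, 6 were called there, and KRT8 was lost. The causes of these moves were not tested.

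With the mouse as a replicate block, 7 keratins were called for MSC against LP, as without it, and KRT15 had an adjusted p of 0.0551. The block changed no keratin call.

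Counts over all genes moved by over 1.5 times. In LM, EP+TPA against EP called 518 genes, 788 as deposited, 3 with only the compared groups and 192 to 2110 without a library. EP+TPA against sham called 1863 (1163 and 1091 at the lowest), EP against sham 2271 (862 to 2755 without a library) and EP+RU486 against EP 2172 (1330 to 1596). In LP, EP+TPA against EP called 2158 (983 to 2717), EP+TPA against sham 749 (366 to 828) and EP+RU486 against sham 1455 (787 to 2189). In MSC, EP+TPA against EP called 10 (0 to 31), the other comparisons 0 to 4. EP+TPA against EP+RU486 in LM called 0 to 8, and MSC against LP 5286 (3453 to 6955).

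Depth is unknown, so no detection limit can be given. Values on an offset limit what basal keratins in LM and LP, and luminal keratins in MSC of sets 2 and 3, can show.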
